A study of Mus musculus with 6 samples.

Results

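The genes described here are 10 genes of the fat cell, measured in mouse large intestine: Adipoq, Lep, Retn, Cfd, Plin1, Plin4, Cidec, Fabp4, Lpl and Lipe. They were chosen by name, and each was represented by the probe set that is annotated to it alone and has the highest mean over all 6 arrays. Such a probe set was at hand for 8 of the 10 among 18193 genes in all. Plin1 and Cfd were not analysed here. The series compared distal with proximal colon in untreated females of the mouse strain C57BL/6J. There were 3 libraries labelled distal and 3 labelled proximal, each on 1 single-colour array, and both regions were taken from 3 animals according to the design text. The labels do not say which libraries share an animal, or whether fat and mesentery were trimmed from the gut wall. All values are log2 expression as the authors deposited them, and each difference is distal minus proximal on that scale.

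White fat cells store triglyceride in a single large droplet, release fatty acids from it on demand, and secrete peptide hormones called adipokines. Fat of the mesentery runs along the outer border of the colon and reaches the wall with the vessels, so a piece of whole gut can carry some of it. Adipoq (adiponectin), Lep (leptin) and Retn (resistin) are adipokines and are known mainly from fat cells in the mouse. Plin4 and Cidec coat lipid droplets, and Cidec helps small droplets fuse into large ones. Fabp4 carries fatty acids inside fat cells and is also known from capillary endothelium and macrophages. Lpl frees fatty acids from circulating lipoproteins, and Lipe (hormone-sensitive lipase) frees them from stored fat. Lpl is also made by macrophages and muscle.

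The labels of a pair of libraries went against their profiles. Hoxb13, which patterns the hind end of the body, measured 13.78, 13.29 and 6.65 in distal 1, 2 and 3, against 13.39, 6.53 and 6.48 in proximal 1, 2 and 3. The bile acid exporter subunit Slc51a ran the other way, with 5.07, 5.94 and 12.05 in distal 1, 2 and 3, and 5.83, 12.47 and 12.39 in proximal 1, 2 and 3. The libraries labelled distal 3 and proximal 1 thus stood apart from the others of their label. Libraries are named below by their labels, and each comparison of the regions is given with and without this pair. Array medians over all probe sets lay between 7.90 and 8.02, and precision is limited by the 6 arrays.

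The promoters of 3 of the genes, Lep, Adipoq and Cidec, are shown. All 3 had their highest value in the library labelled proximal 2 and their lowest in that labelled distal 2. Fabp4 and Lipe did so too. The sequences are those of RefSeq on the build GRCm38.p6, 250 bases before to 50 bases after a gene start, written 5′ to 3′ on the gene's strand. Such a window was at hand for 8 of the 10 genes, but not for Fabp4. Capitals mark matches on either strand. Runs of 8 capitals match TTNNGCAA, a form of the site of C/EBP factors, which act in fat cell differentiation. Runs of 5 capitals match CCAAT. The windows are chr6:29059971-29060270 on the plus strand for Lep, chr16:23146286-23146585 on the plus strand for Adipoq and chr6:113434715-113435014 on the minus strand for Cidec. Cidec has a further window, chr6:113435711-113436010 on the minus strand, which holds 0 matches of either motif and is not printed. The windows of Lipe also hold 0 matches of either motif and are not printed.
Lep: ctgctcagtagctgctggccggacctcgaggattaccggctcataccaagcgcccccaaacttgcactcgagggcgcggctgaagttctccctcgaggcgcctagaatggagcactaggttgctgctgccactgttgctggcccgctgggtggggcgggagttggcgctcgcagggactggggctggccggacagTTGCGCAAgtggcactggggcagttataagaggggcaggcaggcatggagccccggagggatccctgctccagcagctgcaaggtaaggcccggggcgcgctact
Adipoq: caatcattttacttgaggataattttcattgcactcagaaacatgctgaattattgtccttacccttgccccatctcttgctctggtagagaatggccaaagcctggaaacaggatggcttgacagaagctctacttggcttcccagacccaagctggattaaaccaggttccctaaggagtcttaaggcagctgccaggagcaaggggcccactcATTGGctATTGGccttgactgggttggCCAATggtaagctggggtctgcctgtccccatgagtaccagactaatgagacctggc
Cidec: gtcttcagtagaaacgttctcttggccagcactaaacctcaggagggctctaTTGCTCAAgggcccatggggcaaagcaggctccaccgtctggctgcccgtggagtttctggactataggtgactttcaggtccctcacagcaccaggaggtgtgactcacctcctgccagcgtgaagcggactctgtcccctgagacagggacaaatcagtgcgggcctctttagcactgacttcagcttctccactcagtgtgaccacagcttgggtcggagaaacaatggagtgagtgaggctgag
The match in Lep begins 55 bases before the start and is the full palindrome TTGCGCAA, a special case of the same motif. The one in Cidec begins 198 bases before its start, and Adipoq holds 0 such matches and 3 of CCAAT. Of all 32851 windows of the same length 10.8% hold TTNNGCAA, 0.183% hold TTGCGCAA and 37.4% hold CCAAT. These matches describe letters in a window and no binding was measured.

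Most of the adipocyte genes were highest in the same library and lowest in the same other one. The library labelled proximal 2 held the highest value of 7 of the 8 genes, where 13.4% of all genes had their highest value. The library labelled distal 2 held the lowest value of 6 of the 8, where 29.5% of all genes had their lowest. The genes were alike in this rise and dip but not in the libraries between, where Cidec and Lipe parted from Adipoq, Retn and Fabp4.

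Adiponectin, the most abundant hormone of fat cells in blood, varied within both labels. Adipoq measured 10.95, 9.83 and 10.88 in distal 1, 2 and 3, against 11.25, 11.79 and 10.29 in proximal 1, 2 and 3. Proximal 2 was the highest and distal 2 the lowest, 1.96 apart or 3.89-fold, and the labelled regions overlapped. The library labelled proximal 3 was the second lowest.

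Leptin, which signals the size of the fat stores to the brain, varied more. Lep measured 6.84, 6.25 and 8.25 in distal 1, 2 and 3, against 7.70, 8.74 and 7.27 in proximal 1, 2 and 3. Proximal 2 and distal 3 were high, distal 2 was low and the regions overlapped. Its range of 2.49 is at best a lower bound, since the value in distal 2 lay under 6.54, the first quartile of the values of all genes, and background can mask lower levels there.

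Resistin, an adipokine of mouse fat, ordered the libraries as adiponectin did, except that proximal 3 and not distal 2 was lowest. Retn measured 10.66, 10.15 and 10.21 in distal 1, 2 and 3, against 10.90, 11.21 and 9.59 in proximal 1, 2 and 3. The proximal libraries held both its highest and its lowest value.

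Fabp4 measured 12.61, 12.07 and 12.93 in distal 1, 2 and 3, against 13.22, 13.23 and 12.33 in proximal 1, 2 and 3. Proximal 1 and proximal 2 were high and alike, and distal 2 was low. Fabp4 has 4 probe sets, and the second brightest was again highest in proximal 2 (12.77) and lowest in distal 2 (11.25). A dimmer one was highest in proximal 1 (8.23) and lowest in proximal 3 (6.57), and the dimmest was flat, between 5.27 and 5.59.

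The droplet proteins differed from each other. Plin4 measured 8.85, 8.96 and 9.56 in distal 1, 2 and 3, against 9.20, 9.59 and 8.90 in proximal 1, 2 and 3, the narrowest range of the 8 at 0.74. Cidec had the widest, with 8.61, 7.69 and 10.44 in distal 1, 2 and 3, against 8.87, 11.10 and 10.55 in proximal 1, 2 and 3. For Cidec the libraries distal 3, proximal 2 and proximal 3 were high and the other 3 low, with 10.6-fold between the extremes.

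Lpl measured 12.32, 11.89 and 12.89 in distal 1, 2 and 3, against 12.56, 12.88 and 12.64 in proximal 1, 2 and 3. Its highest value was in distal 3 and not in proximal 2, by 0.01, and its second probe set was highest in proximal 2 (10.66) and lowest in distal 2 (8.90). Lipe measured 7.80, 7.75 and 9.09 in distal 1, 2 and 3, against 8.28, 9.21 and 9.06 in proximal 1, 2 and 3. Like Cidec, Lipe was high in distal 3, proximal 2 and proximal 3. The second probe set of Lipe lay between 4.8 and 5.39 in every library and had the opposite sign, with a difference of 0.26.

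**Figure D1:**
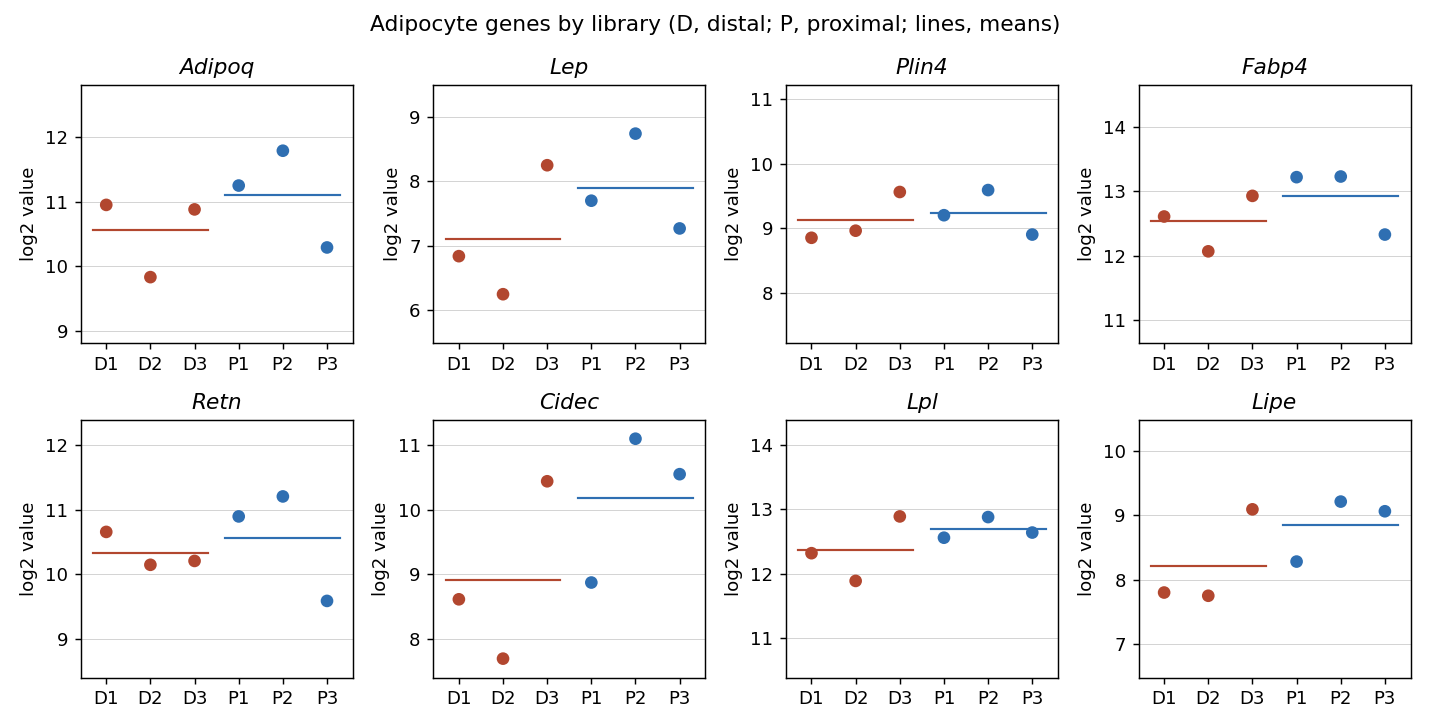
Log2 values of the 8 adipocyte genes in each library, distal (D1 to D3) left of proximal (P1 to P3). Every panel spans 4 log2 units, points are libraries and lines are the means of the labelled regions. P2 is the highest point in 7 of the 8 panels, and in Cidec and Lipe D3, P2 and P3 stand above the other 3.

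Within several pairs of libraries all 8 genes lay on the same side. All 8 were lower in distal 2 than in distal 3, by a median of 1.03, where 57.8% of all genes were lower. All 8 were higher in proximal 2 than in proximal 3, by a median of 0.80, where 44.3% of all genes were higher. Each of these pairs lies within a label, and neither proximal 2 nor proximal 3 is among the libraries that went against theirs. Distal 3 is among them, so distal 2 and distal 3 share a label but differ in their profiles of Hoxb13 and Slc51a. All 8 were also lower in distal 1 and in distal 2 than in proximal 1. Against distal 1 the median was -0.33 and 52.5% of all genes were lower in distal 1, and against distal 2 it was -0.95 and 53.7% were lower. Across genes, which are not independent replicates, proximal 1 had r = 0.993 with distal 1 and 0.990 with distal 2. These lay above its r of 0.979 with distal 3, 0.977 with proximal 2 and 0.975 with proximal 3. Against proximal 2, all 8 were lower in distal 1 (54% of all genes) and in distal 2 (56.9%). In bulk tissue fewer fat cells, less RNA of these genes per fat cell and less of it from other cells of the wall cannot be told apart.

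**Figure D2:**
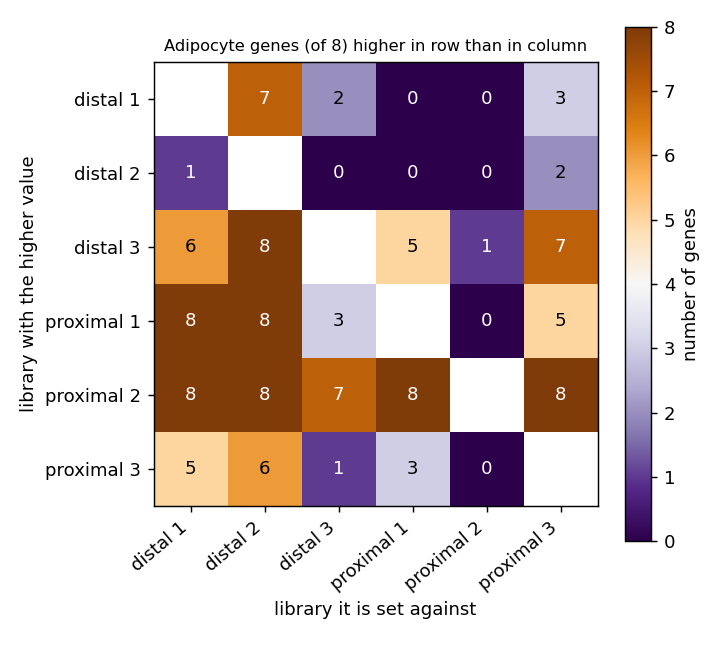
For each pair of libraries, the number of the 8 adipocyte genes with a higher value in the library of the row than in that of the column. The row of proximal 2 holds 7 or 8 throughout, and the row of distal 2 holds 0 to 2.

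The median deviation of the 8 genes from their own means was -0.27, -0.72 and 0.37 in distal 1, 2 and 3, and 0.11, 0.72 and -0.26 in proximal 1, 2 and 3. The same median over all genes lay between -0.05 and 0.03 in every library. In distal 2, 0 of the 8 lay above their mean (42.4% of all genes), and in proximal 2 all 8 did (53.8%). In proximal 3 the genes split. Cidec stood at 1.01, Lipe at 0.53 and Lpl at 0.11 there, while Retn stood at -0.86, Adipoq at -0.54, Fabp4 at -0.40, Plin4 at -0.28 and Lep at -0.24.

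Adipoq shared the order of the libraries most with Fabp4 and Retn, and Cidec most with Lipe. Over the 15 pairs of libraries, Adipoq had the same order as Fabp4 in 14, as Retn in 14 and as Lep in 12, but as Cidec in 10 and as Lpl in 10. Cidec had the same order as Lipe in 14, as Lpl in 13 and as Lep in 13, but as Retn in 9. Lep had the same order as Lipe in 14, as Cidec in 13, as Adipoq in 12 and as Retn in 11. Among all other genes the median was 8 for both. At least 14 were reached by 0.302% of them with Adipoq and by 5.85% with Cidec. Over the 28 pairs of adipocyte genes this count ran from 9 to 14. The 15 pairs share 6 libraries, so the counts are a description.

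The genes whose profile lay nearest to Cidec and to Adipoq were looked up among all genes but the 10 listed ones and predicted and clone names. By the rule for naming them, nearness is the root mean square difference between 6 centred values, which depends on how widely a gene varies as well as on its order of libraries. It was taken from Cidec because Adipoq spanned just under 2 log2 units. Nearest to Cidec were Stard5 (0.253), a lipid transfer protein, Pdk4 (0.276), a kinase that restrains pyruvate dehydrogenase, the peptidase Enpep (0.279) and Pla2g12b (0.297), a phospholipase relative that acts in lipoprotein secretion. Mmp9 (0.338), Abhd3 (0.349), Chst11 (0.352) and Lrp12 (0.358) followed, and 0 of these 8 are among 25 further adipocyte markers described below. Pdk4 measured 10.69, 10.32 and 13.10 in distal 1, 2 and 3, against 11.07, 13.13 and 13.20 in proximal 1, 2 and 3. The same measure from Adipoq was added after its values were seen.

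Nearest to Adipoq were Adig (0.135), a small protein of adipocyte droplets, Car3 (0.162), the carbonic anhydrase of fat and muscle, and Mrap (0.214), an accessory protein of the corticotropin receptor in adrenal and fat. Cyp2e1 (0.245), Car5b (0.292), the lipogenic regulator Thrsp (0.300), the fatty acid transporter Cd36 (0.301) and Mogat1 (0.333), an acyltransferase of triglyceride synthesis, followed. Adig, Car3, Mrap, Thrsp and Cd36, 5 of the 8, are among the 25 further adipocyte markers. Adig measured 8.29, 7.52 and 8.29 in distal 1, 2 and 3, against 8.50, 9.23 and 7.69 in proximal 1, 2 and 3. Like Adipoq it was highest in proximal 2 and lowest in distal 2, with proximal 3 next to lowest. With the listed genes counted in, Fabp4 would rank 5 (0.268), Retn 11, Lpl 106 and Lep 163 by nearness to Adipoq. Plin4 would come between Lep and Lipe, Lipe would rank 10819 and Cidec 17663. By nearness to Cidec, Lipe would rank 217, Lep 295 and Retn 13915, with the other measured genes of the list between Lep and Retn.

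**Figure D3:**
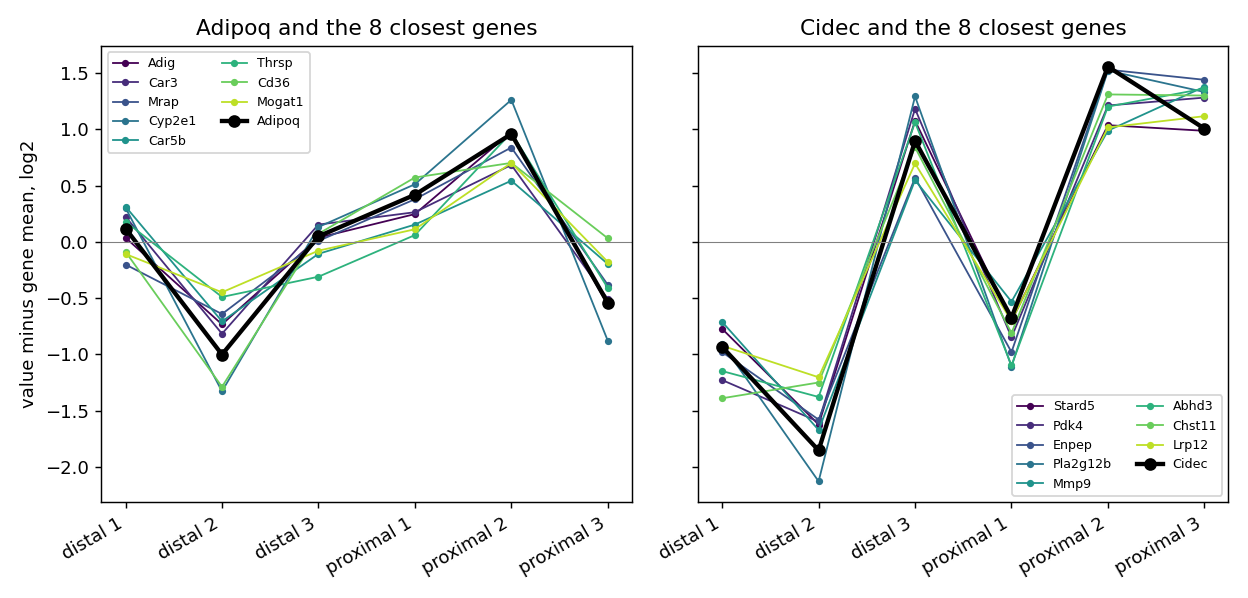
Values minus each gene's mean over 6 libraries, for Adipoq (left) and Cidec (right) in black. The 8 genes nearest to each, with the 10 listed genes and predicted and clone names left out, are in colour. Proximal 3 lies low on the left, with Adipoq at -0.54, and high on the right, with Cidec at 1.01.

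As labelled, 0 of the 8 genes passed limma's moderated test between the regions. All 8 averaged lower in distal libraries, as did 53.7% of all genes, with differences between -1.26 for Cidec and -0.11 for Plin4 and a median of -0.47, against -0.02 over all genes. Adipoq averaged 10.55 ± 0.63 in distal and 11.11 ± 0.76 in proximal libraries (SD, n = 3 each), a difference of -0.56 (SE 0.46, limma adjusted p = 0.824). Cidec averaged 8.91 ± 1.40 in distal and 10.17 ± 1.16 in proximal libraries (SD, n = 3 each), a difference of -1.26 (SE 0.84, limma adjusted p = 0.824). With 1 library left out, the difference ran from -2.02 without distal 3 to -0.65 without distal 2 for Cidec, and from -0.97 without proximal 3 to -0.20 without distal 2 for Adipoq. Limma called 0 of the 8 and 0 of 18193 genes, a share of 0%, at an adjusted p of 0.05. Without adjustment, at a p of 0.05, it called 0 of the 8 and 554 genes in all (3.05%), and a plain test with a pooled variance called 0 of the 8 and 607 in all. The labelled regions overlapped for all 8 genes, while 7.33% of all genes had regions that did not. These p-values measure the spread between libraries of which a pair went against their labels.

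Without the libraries labelled proximal 1 and distal 3, Cidec and Lipe fell in distal libraries and the adipokines did not pass. The data were known when this alternative was chosen, it leaves out libraries for their own profiles, and its p-values are too small for that reason and hold for 4 libraries alone. Cidec averaged 8.15 in distal 1 and 2 and 10.82 in proximal 2 and 3, a difference of -2.68 (SE 0.34, limma adjusted p = 0.00802). Lipe averaged 7.78 in distal 1 and 2 and 9.14 in proximal 2 and 3, a difference of -1.36 (SE 0.11, limma adjusted p = 0.00246). The call is 2 of 8 genes lower in distal libraries, where 11.5% of all genes were called in that direction, and 0 of 8 higher, where 7.71% were.

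The other 6 genes did not pass among these 4 libraries. Lep differed by -1.46 (SE 0.50, limma adjusted p = 0.101), Lpl by -0.66 (SE 0.18, limma adjusted p = 0.0626), Adipoq by -0.65 (SE 0.58, limma adjusted p = 0.490) and Retn by 0.005 (SE 0.53, limma adjusted p = 1.0). For Retn the values of proximal 2 and 3, 11.21 and 9.59, lay on both sides of those of distal 1 and 2. For Adipoq proximal 2 (11.79) lay above distal 1 and 2, and proximal 3 (10.29) lay between them. Fabp4 differed by -0.44 (SE 0.34) and Plin4 by -0.34 (SE 0.24). The calls rest on few libraries: with 1 of the 4 left out, Lipe still passed without distal 1 (-1.38, limma adjusted p = 0.0491) and 0 genes of the 8 passed without distal 2, proximal 2 or proximal 3. The single library left for a region was then taken to vary as the other region's pair does.

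**Figure D4:**
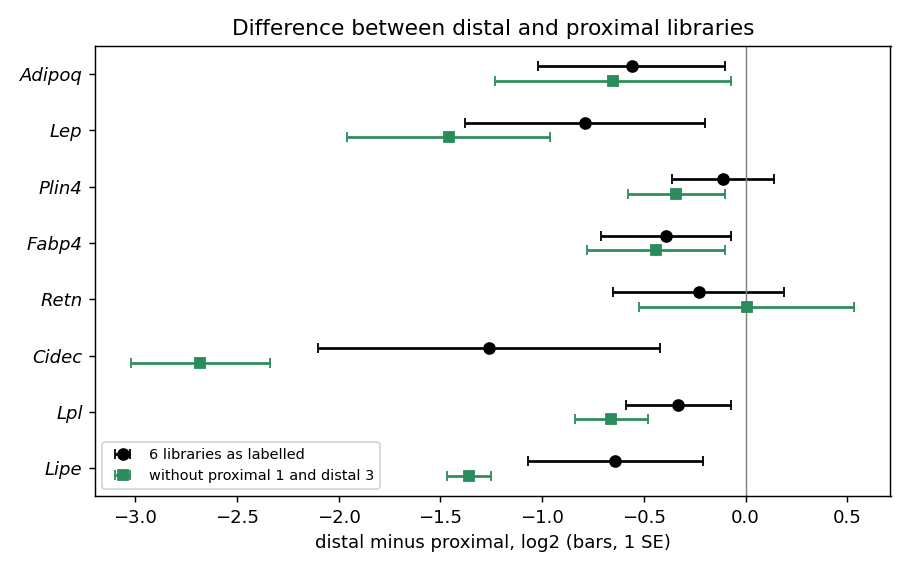
Distal minus proximal difference of each adipocyte gene in log2 units, with bars of 1 SE, from 6 libraries as labelled (circles) and without proximal 1 and distal 3 (squares). Cidec moves to -2.68 and Lipe to -1.36 without that pair, and Retn to 0.005.

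Further adipocyte markers showed the same libraries high and low, less evenly. Of 25 measured, 16 were highest in proximal 2 and 14 lowest in distal 2, and their median deviation was -0.45 in distal 2 and 0.39 in proximal 2. Of the 25, 21 were higher in proximal 2 than in proximal 3 and 3 were lower, where 44.3% of all genes were higher. Car3 measured 13.05, 12.01 and 12.98 in distal 1, 2 and 3, against 13.09, 13.51 and 12.32 in proximal 1, 2 and 3. Cd36 measured 8.89, 7.69 and 9.05 in distal 1, 2 and 3, against 9.55, 9.68 and 9.01 in proximal 1, 2 and 3. Both put distal 2 lowest and proximal 2 highest. Scd1, a desaturase of fatty acid synthesis with the highest mean of the list, was also highest in proximal 2 (14.18).

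Of the 25, 9 were not highest in proximal 2 and 11 were not lowest in distal 2. Pck1, an enzyme of glyceroneogenesis and gluconeogenesis, measured 12.12, 12.26 and 12.13 in distal 1, 2 and 3, against 12.02, 11.88 and 11.98 in proximal 1, 2 and 3, with distal 2 highest and proximal 2 lowest. Lgals12, a galectin of lipid droplets, measured 10.53, 11.11 and 10.04 in distal 1, 2 and 3, against 11.20, 9.21 and 9.20 in proximal 1, 2 and 3, so that proximal 2 and proximal 3 were its lowest libraries. As labelled 0 of the 25 passed. Without proximal 1 and distal 3, limma called 6 lower in distal libraries (11.5% of all genes) and 1 higher (7.71% of all genes). The lower ones were Gpd1 (-1.25), Dgat2 (-1.46), Agpat2 (-1.09), Nrg4 (-1.32), Cidea (-0.47) and Nnat (-0.42), and the higher one was Lgals12 (1.62). Gpd1 makes the glycerol backbone of triglyceride and Dgat2 and Agpat2 are acyltransferases that build it, steps that enterocytes also use.

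The median deviation of 16 measured transcription factors of fat cells lay between -0.15 and 0.10 in every library. As labelled 0 of the 16 passed. Without proximal 1 and distal 3, limma called 3 lower in distal libraries (11.5% of all genes) and 2 higher (7.71% of all genes). Pparg, the nuclear receptor that drives fat cell differentiation and is also made by colonic epithelium, measured 10.58, 10.45 and 12.22 in distal 1, 2 and 3, against 10.67, 12.37 and 12.49 in proximal 1, 2 and 3. Like Cidec, Pparg was high in distal 3, proximal 2 and proximal 3. It differed by -0.76 as labelled (SE 0.66, limma adjusted p = 0.824) and by -1.92 without proximal 1 and distal 3 (SE 0.12, limma adjusted p = 0.00104). Cebpa, a C/EBP factor of fat cells and liver, differed by -0.10 as labelled and by -0.32 without that pair and passed in neither. Cebpb was highest in distal 3 (9.25), then proximal 3 (9.09) and proximal 2 (9.08). It differed by -0.37 as labelled (limma adjusted p = 0.824) and by -0.72 without that pair (limma adjusted p = 0.0169). Cebpd was highest in proximal 1 (10.81) and lowest in distal 2 (9.51).

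Of 17 genes of lipolysis and triglyceride turnover, 0 passed as labelled. Without proximal 1 and distal 3, 6 were called lower in distal libraries (11.5% of all genes) and 0 higher (7.71% of all genes). Mgll, which completes the breakdown of stored fat, measured 10.44, 10.61 and 11.92 in distal 1, 2 and 3, against 10.61, 11.90 and 11.99 in proximal 1, 2 and 3. Angptl4, a secreted inhibitor of Lpl, measured 7.47, 7.03 and 8.64 in distal 1, 2 and 3, against 8.11, 8.51 and 8.59 in proximal 1, 2 and 3. Both had distal 3, proximal 2 and proximal 3 as their highest libraries, as Cidec did. Without that pair they differed by -1.42 (limma adjusted p = 0.00246) and -1.30 (limma adjusted p = 0.00865). Lpin2 was also high in distal 3, proximal 2 and proximal 3 and differed by -1.40 (limma adjusted p = 0.00946). Acly went the other way, highest in distal 2 (14.31) and lowest in distal 3 (13.70). It differed by 0.38 without that pair (limma adjusted p = 0.110).

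Relatives and receptors of the genes were set beside them, since the gut wall has its own forms. Of 23 measured, 0 passed as labelled. Without proximal 1 and distal 3 limma called 9 lower in distal libraries (11.5% of all genes) and 1 higher (7.71% of all genes). Fabp6, the ileal bile acid binding protein, measured 10.03, 10.24 and 12.28 in distal 1, 2 and 3, against 10.35, 13.33 and 13.06 in proximal 1, 2 and 3. Fabp2, the intestinal form, measured 12.60, 13.48 and 14.38 in distal 1, 2 and 3, against 13.65, 14.46 and 14.43 in proximal 1, 2 and 3. Both were high in distal 3, proximal 2 and proximal 3, unlike Fabp4.

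Cideb, the relative of Cidec known from liver and enterocytes, measured 11.55, 11.29 and 12.17 in distal 1, 2 and 3, against 11.10, 12.10 and 12.13 in proximal 1, 2 and 3. It too was high in distal 3, proximal 2 and proximal 3. The droplet proteins Plin2 and Plin3, made in most cells, were flatter, with 12.32 to 12.68 and 10.04 to 10.41 over all libraries. Retnlb, the goblet cell relative of resistin, measured 12.15, 13.64 and 14.32 in distal 1, 2 and 3, against 14.32, 12.75 and 12.84 in proximal 1, 2 and 3. Its order differed from that of Retn, with distal 1 lowest and distal 3 and proximal 1 highest. The adiponectin receptors Adipor1 and Adipor2 ranged from 12.36 to 12.79 and from 12.03 to 12.20. The leptin receptor Lepr differed by -0.45 as labelled (SE 0.18, limma adjusted p = 0.824) and by -0.66 without that pair (SE 0.17, limma adjusted p = 0.0553).

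Markers of other tissue that could come with the gut wall were set beside the adipocyte genes, and some lists were also low in distal 2. Of 12 mesothelial markers, which line the outer surface, 2 lay above their means in distal 2 and 5 in proximal 2, and the list's median deviation was -0.24 and -0.30 there. It was 0.33 in distal 3 and 0.28 in proximal 1. Muc16, the widest of that list, measured 4.83, 4.95 and 10.62 in distal 1, 2 and 3, against 4.81, 9.56 and 9.54 in proximal 1, 2 and 3. Of 11 preadipocyte and adventitial markers 2 lay above their means in distal 2 and 4 in proximal 2, with medians of -0.13 and -0.02. Brown fat markers were dim, with 5 of 12 never above that first quartile. Of the 12, 2 lay above their means in distal 2 and 8 in proximal 2, with medians of -0.20 and 0.06, and 6 were lowest in distal 2. The part of these tissues in the levels of the adipocyte genes was not tested.

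Pancreatic acinar enzymes, whose gland lies in the same mesentery, were high in the library labelled distal 1 and in that labelled proximal 1. The list's mean level was 12.51 in each, against 7.51 to 7.83 in the other 4 libraries. The adipocyte genes were highest in neither of these libraries, with median deviations of -0.27 in distal 1 and 0.11 in proximal 1. B cell markers had medians of 0.88, 0.87 and -1.23 in distal 1, 2 and 3, and 0.53, -0.65 and -0.60 in proximal 1, 2 and 3.

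Markers of macrophages and blood endothelium were also low in distal 2. It held the lowest value of 8 of 10 macrophage markers and 7 of 10 endothelial markers, where 29.5% of all genes had their lowest. Of 10 macrophage markers 0 lay above their means in distal 2 and 7 in proximal 2, but all 10 did so in proximal 3, where Adipoq, Lep and Retn lay below theirs. Their mean level was at most 9.95 over distal and 10.36 over proximal libraries, and 9.42 in distal 2. Of 10 endothelial markers 2 lay above their means in distal 2 and 4 in proximal 2, and their mean level ranged from 8.90 to 9.21 over distal and from 9.12 to 9.30 over proximal libraries. No marker of either list stayed below the first quartile in every library. Lymphatic markers had medians between -0.13 and 0.19. The part of macrophages and vessels in the levels of Lpl, Fabp4 and Cd36 was not tested.

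The median deviation of 12 epithelial markers lay between -0.13 and 0.09, and that of 12 smooth muscle markers between -0.28 in proximal 3 and 0.12 in distal 2 and distal 3. Skeletal muscle markers lay between -0.13 and 0.11, and markers of enteric glia and neurons between -0.19 and 0.11. Of the 12 epithelial markers, 9, 10 and 10 lay above their means in distal 3, proximal 2 and proximal 3. In distal 1, distal 2 and proximal 1, 5, 3 and 1 did. Without proximal 1 and distal 3, limma called 3 of them lower in distal libraries (11.5% of all genes) and 0 higher (7.71% of all genes). Whether the signal of the adipocyte genes came from fat attached outside the wall or from fat cells within it was not tested.

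**Figure D5:**
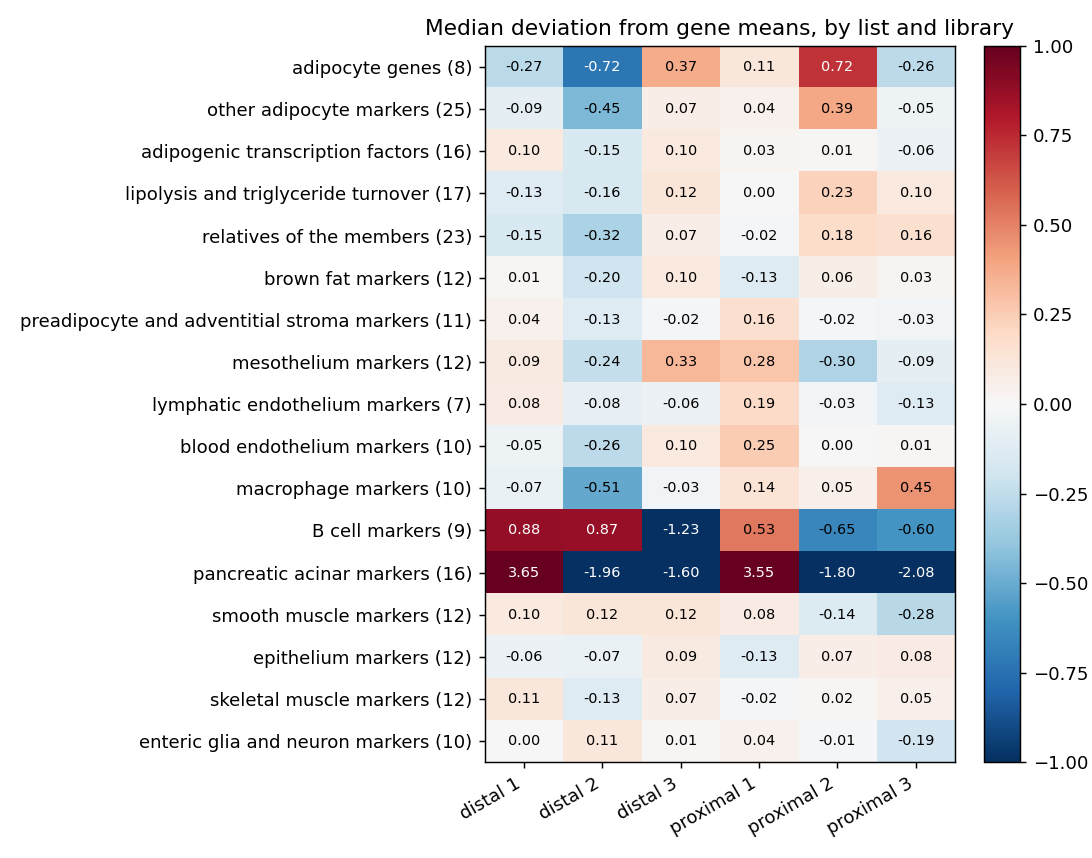
Median deviation of each list's genes from their own means, by library, in log2 units, with the number of measured genes in brackets. The colour stops at -1 and 1, and adipocyte genes run from -0.72 in distal 2 to 0.72 in proximal 2.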

How the data were processed

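The log2 values were made by the authors with RMA in Partek 6.5, per the submitters' processing notes. They were read as log2 expression, because of that method and because they run from 2.91 to 15.16. RMA equalises the distributions of the arrays, which hides any change common to most genes. The background setting is not given in the sources used here. Per the labels' protocols, RNA was extracted in Trizol and amplified with NuGEN Ovation kits.

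Of 45101 probe sets, 64 controls, 932 with several genes and 9160 with no gene listed were left out, which left 34945 for 18193 genes. Symbols were updated through a RefSeq gene table of GRCm38.p6. Regions were compared with lmFit and eBayes of limma 3.58.1 (R 4.3.3), two-sided, with Benjamini-Hochberg adjustment over all genes and an adjusted p threshold of 0.05, with no block for the replicate number, and the calculation was tested on simulated data. A count of genes above their mean, highest or lowest in a library is a description.

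The adipocyte genes and the 16 other lists (214 of 235 entries measured) were chosen with earlier results of these data known. The rule for naming covered the 8 adipocyte genes, the genes of the list of relatives and the 8 genes nearest to Cidec. In each other list it covered up to 3 genes with the widest range and the 2 with the highest mean. Not all genes of the relatives and other lists that it covered are given above, and the choice among them was not set by the rule. Other genes named, namely Hoxb13, Slc51a, those nearest to Adipoq, and Gpd1, Dgat2, Agpat2, Cidea, Nnat and Pck1, were chosen after their values were seen.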

Additional observations from a re-analysis of the deposited data

How the results depend on the processing

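As labelled, 0 of the 8 adipocyte genes and 0 of 212 other list genes passed. Both counts stayed at 0 with the replicate block, with the mean of all probe sets and after quantile normalization or median centring. They also stayed at 0 with a trended and robust prior, with the plain test, at an adjusted p threshold of 0.01 and without each library in turn (range 0 to 0). With the filter on dim genes, 0 passed of the 5 adipocyte genes and 115 other list genes that it kept. With array weights limma called 3 of the 8, Cidec (-2.26, adjusted p = 0.0252), Lpl (-0.51, adjusted p = 0.0399) and Lipe (-1.24, adjusted p = 0.0252), and 74 other list genes, where 30.7% of all genes were called. Distal 1, 2 and 3 received weights of 2.51, 0.403 and 0.291, and proximal 1, 2 and 3 received 0.322, 6.72 and 1.57. Among the 4 libraries left without proximal 1 and distal 3, limma called 19.2% of all genes. Without proximal 1 and distal 3 the counts were 2 and 64, after quantile normalization 2 and 56, after median centring 2 and 55, and with 1 more library left out 0 to 1 of the 8 and 36, 21, 2 and 3 others (without distal 1, distal 2, proximal 2 and proximal 3).

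Signs turned for Retn, Plin4, Fabp4 and Adipoq. Retn differed by 0.005 in the 4 libraries, by 0.08 after quantile normalization and 0.10 after median centring. Leaving out 1 library gave -0.72 to 0.10 for Retn among the 6 and -0.80 to 0.82 among the 4, with 0.10 without proximal 2 of the 6, and 0.26 without distal 2 and 0.82 without proximal 2 of the 4. Plin4 ran from -0.32 without distal 3 to 0.03 without distal 1 and 0.07 without proximal 2 of the 6, and Plin4 0.005, Fabp4 0.01 and Adipoq 0.10 without proximal 2 of the 4. The cause was not tested.

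Adipoq, Lep, Cidec and Retn were grouped as the measured genes known mainly from fat cells. Of these 4, 4 were highest in proximal 2 and 3 lowest in distal 2. Cidec alone of them had distal 3, proximal 2 and proximal 3 as its highest libraries, as Fabp2, Fabp6 and Pparg did. With all 8 genes or all but 1 of them, under the other alternatives, these counts were 6 to 7 and 5 to 6. The labels do not say that a number marks an animal. Deviations from the group means correlated across genes at 0.68 for number 1, -0.45 for number 2 and 0.68 for number 3. These correlations also carry the libraries that went against their labels, with 0.73 between distal 3 and proximal 2, so whether a number marks an animal was not settled.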
